A study of Mus musculus with 14 samples.

Results

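Fusion of mononucleated myoblasts into myotubes, and resealing of the muscle membrane after injury, rest on partly shared membrane proteins. The genes described here are 9: Tmem8c (myomaker, a muscle membrane protein required for fusion), the cadherins Cdh15 and Cdh2, Nphs1 (nephrin), Adam12, Dock1, Cav3 (caveolin-3), Dysf (dysferlin) and Myof (myoferlin). They were taken by symbol from the deposited RNA-seq table, where each matched 1 of the 24016 transcripts. The RNA was from C2C12, a mouse myoblast line that forms myotubes after a switch to a differentiation medium with horse serum. Cells were transfected with control siRNA (siCtrl) or with a pool of siRNAs against Klf5 (siKlf5), a zinc-finger transcription factor, and were collected on days 0, 1, 2 and 3 of differentiation. All groups are the same line, and the knockdown is partial and transient.

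1 library was made for each siRNA and day, 8 in all, so no condition has a replicate. Recovered depth in siCtrl cells was 12178834, 7850496, 20301506 and 12366627 reads in day order. In siKlf5 cells it was 11136800, 8119452, 11808641 and 10864084 reads. Levels are the deposited FPKM values, which are scaled per transcript length to a total of 10000000 and are thus larger than usual FPKM. Differences are log2 ratios after addition of 0.1. The 95% intervals (exact Clopper-Pearson) cover counting error only and say nothing of the spread between cultures. A ratio was counted as past the cutoff when it exceeded 1.5-fold between siRNAs or 2-fold between days.

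In the usual order of events, myoblasts first adhere through cadherins, nephrin-family proteins and ADAM proteases. Dock1, an activator of the small GTPase Rac, then drives actin remodelling, and myomaker acts on the membranes themselves. Dysferlin and myoferlin are calcium-binding membrane proteins of the ferlin family, and caveolin-3 is the muscle caveolin, which shapes caveolae and interacts with dysferlin at the sarcolemma.

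Klf5 (NM_009769) itself was measured at 224, 381, 614 and 933 FPKM in siCtrl cells on days 0 to 3 and at 35.1, 159.6, 192 and 211 FPKM in siKlf5 cells. Its level in siKlf5 cells was 15.7%, 41.9%, 31.3% and 22.7% of control, so the libraries carried the labelled knockdown on every day. Its level rose over the days under both siRNAs (limma day 3 minus day 0 difference 2.32 ± 0.38, SE, adjusted p = 0.0288). All 8 myoblast and myocyte markers on the list (Myod1, Myf5, Myog, Des, Chrna1, Ckm, Tnnt3 and Actc1) were expressed, that is, had a mean of at least 1 FPKM. Their summed FPKM was 3664, 10985, 10377 and 13546 in siCtrl cells and 3002, 9936, 11937 and 12173 in siKlf5 cells, and Tnnt3 was the most abundant. The labelled cell type therefore fits its markers. The summed level was lower in siKlf5 cells on days 0, 1 and 3 and higher on day 2. Myog (myogenin, a transcription factor of differentiating muscle) was measured at 479, 1896, 2061 and 2293 FPKM in siCtrl cells and at 328, 1517, 1740 and 1386 FPKM in siKlf5 cells. It was lower in siKlf5 cells on all 4 days, at 68.3%, 80.0%, 84.4% and 60.5% of control, with each counting interval of the log2 ratio below 0, while each of the other 7 markers was higher in siKlf5 cells on at least 1 day. The Myog limma siRNA difference was -0.46 ± 0.12 (SE, adjusted p = 0.652). The part of these marker differences in the values below was not tested. In RNA from whole cultures, fewer cells of a type and less RNA per cell cannot be told apart.

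Of the 9 genes, 8 were expressed, and Nphs1 was not. Over the 8 libraries Cdh15 had the highest mean level (1036 FPKM), close to that of Tmem8c (1022 FPKM). Myof followed at 506 FPKM and Cdh2 at 348 FPKM. Cav3 and Dysf had nearly equal means of 104 and 103 FPKM but very different ranges, and Dock1 (53.1 FPKM) and Adam12 (6.35 FPKM) were the lowest. The order changed during differentiation. On day 0 in siCtrl cells it ran Cdh15, Myof, Cdh2, Tmem8c, Dock1, Dysf, Adam12 and Cav3, whereas on day 3 it ran Tmem8c, Cdh15, Myof, Cdh2, Cav3, Dysf, Dock1 and Adam12. In siKlf5 cells on day 3 Cdh2 stood above Myof and Dysf above Cav3. Counting intervals of neighbours in the order overlapped in 15 of 56 pairs, among them Cdh2 and Cav3 in siCtrl cells on day 3 and, in siKlf5 cells on day 3, both Cdh2 and Myof and Dysf and Cav3 (135 to 170 and 85.1 to 161 FPKM). Tmem8c made up 7.36% of the summed FPKM of the 9 genes on day 0 and 42.3% on day 3 in siCtrl cells, while Cdh15 went from 50.5% to 22.1%.

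**Figure D1:**
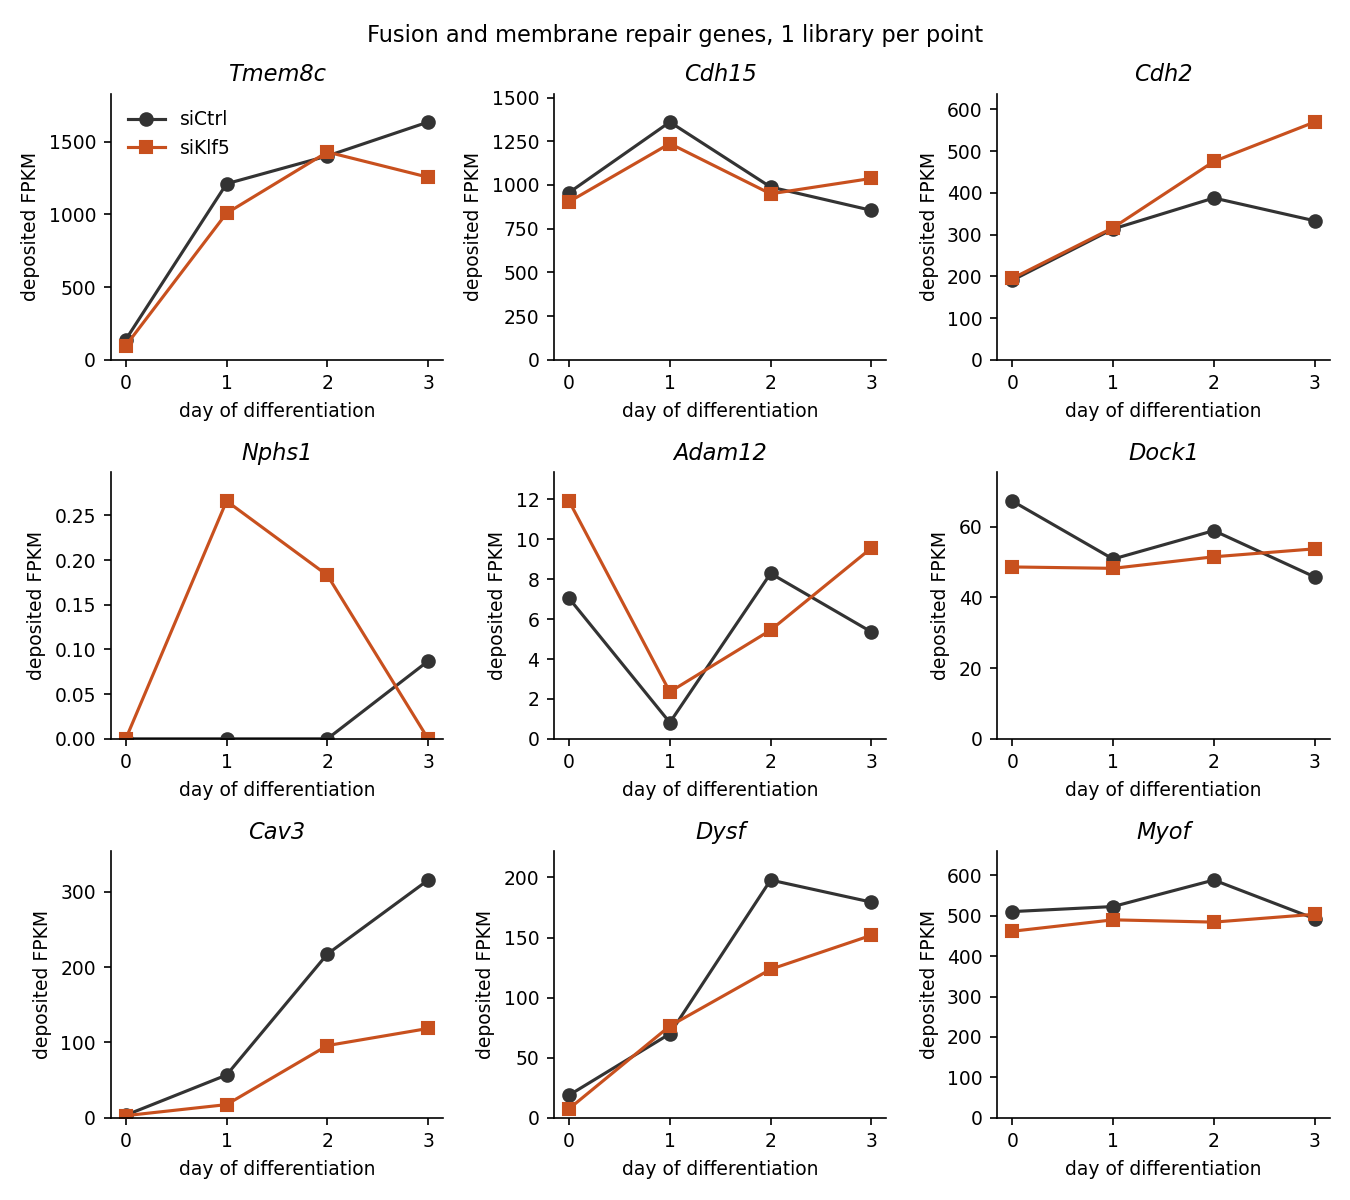
Deposited FPKM (vertical axis, a separate scale in each panel, from 0) of the 9 genes on days 0 to 3 in siCtrl (black circles) and siKlf5 cells (orange squares), with 1 library per point. Tmem8c, Cav3 and Dysf climb under both siRNAs, Cav3 stays lower in siKlf5 cells on days 1 to 3, Cdh2 separates upward on days 2 and 3, and Nphs1 never exceeds 0.266.

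Tmem8c, Cav3 and Dysf rose over differentiation under both siRNAs, as did Cdh2 to a smaller extent, while Cdh15, Myof, Dock1 and Adam12 passed no test of change over the days. Between day 0 and day 3, 3 of the 8 expressed genes (Tmem8c, Cav3 and Dysf) were more than 2-fold higher in siCtrl cells, beside 15.5% of all 14312 expressed transcripts, and none was more than 2-fold lower, beside 12.7%. In siKlf5 cells 4 genes (the same 3 and Cdh2) were higher, beside 14.9% of all, and none was lower, beside 12.4%. Their median log2 change was 0.38 in siCtrl and 0.87 in siKlf5 cells, against -0.07 and -0.08 over all expressed transcripts. A limma fit over all 8 libraries with siRNA and day as terms tested the day 3 minus day 0 difference averaged over both siRNAs, and 18.1% of all transcripts passed an adjusted p of 0.05. Tmem8c, Cav3, Dysf and Cdh2 passed in the upward direction, beside 8.57% of all, and none of the 8 passed downward, beside 9.54%. The libraries of a day differ in siRNA and are not replicates. The spread behind this test is thus that of the siRNA difference over the days, not that between cultures. The fit leaves 3 residual degrees of freedom. Its 2593 passing transcripts became 819 without the day 2 libraries and 4347 with a mean-variance trend. Without day 2, Cdh2 and Dysf did not pass, and Cdh2 also did not pass without day 1.

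Between the siRNAs, Cav3 was lower in siKlf5 cells on days 1 to 3 and Cdh2 higher on day 3, while most of the other genes stayed within 1.5-fold. On day 0, 1 of the 8 genes (Dysf) was more than 1.5-fold lower in siKlf5 cells, beside 11.1% of all expressed transcripts, and 1 (Adam12) was higher, beside 9.22%. On day 1, Cav3 was lower, beside 11% (1569 of 14312), and Adam12 higher, beside 16.4%. On day 2, 3 genes (Cav3, Dysf and Adam12) were lower, beside 13.0%, and none was higher, beside 7.69%. On day 3, 1 gene (Cav3) was lower, beside 12.5%, and 2 (Cdh2 and Adam12) were higher, beside 10.7%. With 8 genes, 1 gene is 12.5%, so only the day 2 count of lower genes and the day 3 count of higher genes exceed 1 gene. The median log2 ratio of the 8 genes was -0.21, -0.09, -0.24 and 0.13 on days 0 to 3, against 0.00, 0.03, -0.03 and 0.00 over all expressed transcripts.

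The siRNA term of the same limma fit asks whether the difference, averaged over the 4 days, exceeds its spread over the days, which are not replicates. It called 0 transcripts (0% of 14312) at an adjusted p of 0.05, while 1091 had an unadjusted p under 0.05. A fit with a mean-variance trend called 9 and a fit without the day term called 2, none of them among the 9 genes. Klf5 itself had an adjusted p of 0.646 in limma at a mean log2 difference of -1.94 ± 0.27 (SE), so a missed threshold in this design does not show that a gene did not differ. In limma 1 of the 8 genes, Cav3, had an unadjusted p under 0.05, and its adjusted p was 0.652.

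**Figure D2:**
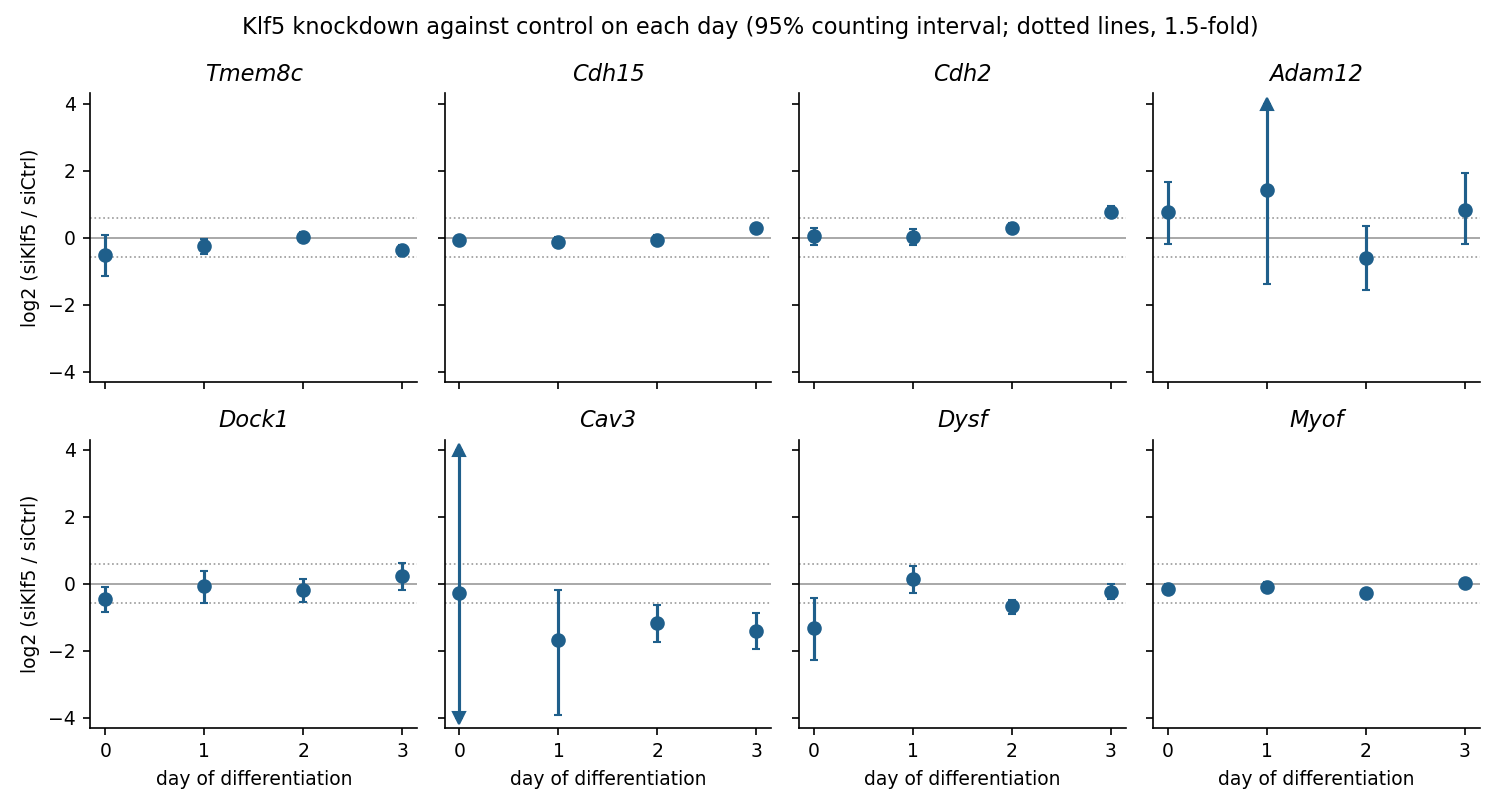
Log2 ratio of siKlf5 to siCtrl (vertical axis) on each day (horizontal axis) for the 8 expressed genes. Bars are 95% counting intervals, those running past 4 or -4 end in a triangle, and dotted lines mark 1.5-fold. Cav3 is below the lower line on days 1, 2 and 3, Cdh2 is above the upper line on day 3, and Cdh15, Dock1, Myof and Tmem8c lie between the lines on all 4 days.

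Among the genes of fusion and adhesion, Tmem8c (NM_025376, chromosome 2 of mm9, 26917156 to 26927681, minus strand) rose chiefly on the first day. Its level was 139, 1210.4, 1401 and 1635 FPKM in siCtrl cells on days 0 to 3 and 97.3, 1008, 1428 and 1255 FPKM in siKlf5 cells. The siKlf5 value was the lower on days 0, 1 and 3, and the higher on day 2 by 1.02-fold. From day 0 to day 1 the level rose 8.68-fold in siCtrl and 10.4-fold in siKlf5 cells, and from day 0 to day 3 it rose 11.7-fold and 12.9-fold. The log2 day difference in limma was 3.62 ± 0.17 (SE, adjusted p = 0.00427). The siKlf5 level peaked on day 2 and stood at 87.9% of that peak on day 3, whereas the siCtrl level was highest on day 3. The log2 ratios of siKlf5 to siCtrl were -0.52, -0.26, 0.03 and -0.38. The intervals on day 1 (-0.49 to -0.04) and day 3 (-0.55 to -0.22) lay below 0, so those differences exceeded counting error, yet both stayed under 1.5-fold. The limma siRNA difference was -0.28 ± 0.12 (SE, adjusted p = 0.668).

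Myomaker acts with myomixer, a small muscle membrane protein listed in the table as Gm7325 (NM_001177468). Gm7325 was measured at 34.1, 569, 982 and 683 FPKM in siCtrl cells and at 16.0, 318, 795 and 761 FPKM in siKlf5 cells. Its log2 ratio of siKlf5 to siCtrl went from -1.09 and -0.84 on days 0 and 1 to -0.30 and 0.16 on days 2 and 3, so that the low values were early. The ratio of Tmem8c to Gm7325 levels was 4.08, 2.13, 1.43 and 2.39 in siCtrl cells and 6.08, 3.17, 1.80 and 1.65 in siKlf5 cells. It fell on each day in siKlf5 cells and turned up on day 3 in siCtrl cells.

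The 2 cadherins of the list, calcium-dependent adhesion proteins, are described side by side. Cdh15 (M-cadherin, NM_007662, chromosome 8, 125372274 to 125391297, plus strand) was measured at 957, 1360.1, 988 and 855 FPKM in siCtrl cells and at 904, 1237, 949 and 1038 FPKM in siKlf5 cells. It was highest on day 1 under both siRNAs. Its range over all 8 libraries was 1.59-fold, and the log2 day difference in limma was 0.02 ± 0.15 (SE, adjusted p = 0.951). That value averages opposite changes. From day 0 to day 3 the log2 change was -0.16 in siCtrl (interval -0.30 to -0.02) and 0.20 in siKlf5 cells (0.06 to 0.34). The siKlf5 to siCtrl log2 ratios were -0.08, -0.14, -0.06 and 0.28, and the day 3 interval (0.14 to 0.42) lay above 0.

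Cdh2 (N-cadherin, NM_007664, chromosome 18, 16747386 to 16967558, minus strand) was measured at 191, 314, 388 and 333 FPKM in siCtrl cells and at 195, 317, 475 and 569.8 FPKM in siKlf5 cells. The siRNAs gave almost equal levels on days 0 and 1 and separated afterwards, as the siCtrl level went down after day 2 while the siKlf5 level went on rising. The log2 ratios were 0.03, 0.01, 0.29 and 0.77, with intervals of 0.15 to 0.43 on day 2 and 0.61 to 0.94 on day 3. At 1.71-fold on day 3, Cdh2 was the only one of the 8 genes past 1.5-fold upward with an interval above 0. From day 0 to day 3 it rose 1.75-fold in siCtrl and 2.92-fold in siKlf5 cells. The log2 day difference was 1.18 ± 0.24 (SE, limma adjusted p = 0.0427), a call that was lost without the day 1 or the day 2 libraries. The limma siRNA difference, 0.28 ± 0.17 (SE), had an adjusted p of 0.696 and was 0.11 without the day 3 libraries. The level ratio of Cdh15 to Cdh2 went from 5.02 on day 0 to 2.57 on day 3 in siCtrl cells and from 4.63 to 1.82 in siKlf5 cells.

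The other genes of the fusion machinery were low or passed no test. Nphs1 (nephrin, a cell adhesion protein best known from kidney podocytes; NM_019459, chromosome 7, 31245077 to 31273628, plus strand) had 0, 0, 0 and 1 read in siCtrl cells and 0, 2, 2 and 0 reads in siKlf5 cells. With so few reads no ratio is given. A count of 0 allows up to 3 counts, which with reads taken in units of 6 is 18 reads. For the 5 libraries without a read this limit is 0.952 (siCtrl, day 2) to 2.49 FPKM (siCtrl, day 1), and it covers counting error only. Of 6 podocyte markers, 4 were expressed, led by Synpo, an actin-associated protein, and their summed FPKM ran from 113 to 233 over the libraries. Of the lists of 6 markers each for other cell types, 1 adipocyte gene (Pparg), 3 osteoblast genes (most abundant, Dmp1), 1 endothelial gene (Tek) and 3 macrophage genes (most abundant, Cd68) were expressed. On days 0 to 3 the summed FPKM of the adipocyte list was 158, 67.7, 44.0 and 42.0 in siCtrl cells and 135, 33.7, 39.3 and 33.6 in siKlf5 cells, thus lower in siKlf5 cells on each day. The sums ran from 13.0 to 44.2 for the osteoblast list, from 8.34 to 26.0 for the macrophage list and from 0.826 to 5.36 for the endothelial list. Their part in the differences between the siRNAs was not tested.

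Adam12 (meltrin-alpha, a membrane metalloprotease; NM_007400, chromosome 7, 141074883 to 141416780, minus strand) was measured at 7.04, 0.816, 8.29 and 5.36 FPKM in siCtrl cells and at 11.9, 2.35, 5.45 and 9.56 FPKM in siKlf5 cells. Both day 1 values were the lowest of their siRNA, and both came from the shallowest libraries, with 8 and 24 reads. The fall from day 0 nevertheless exceeded counting error under both siRNAs. The level intervals on days 0 and 1 were 4.15 to 11.2 and 0.045 to 3.76 FPKM in siCtrl cells. In siKlf5 cells they were 7.86 to 17.3 and 0.641 to 6.02 FPKM. The log2 ratios of siKlf5 to siCtrl were 0.75, 1.42, -0.60 and 0.82. The 4 intervals of these ratios each included 0, so the counts of Adam12 past 1.5-fold given above rest on ratios that depth cannot resolve. In limma its siRNA difference was 0.60 ± 0.37 (SE, adjusted p = 0.699), or 0.33 without the day 1 and 1.00 without the day 2 libraries.

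Dock1 (NM_001033420, chromosome 7, 141862370 to 142365330, plus strand) was measured at 67.3, 50.9, 58.9 and 45.8 FPKM in siCtrl cells and at 48.6, 48.2, 51.5 and 53.8 FPKM in siKlf5 cells. The siCtrl level ended at 68.1% of its day 0 value, while the siKlf5 level ended at 110.5% of its own. As log2 changes from day 0 to day 3 these were -0.55 (interval -0.92 to -0.18) and 0.14 (-0.27 to 0.55). The log2 ratio of siKlf5 to siCtrl moved from -0.47 on day 0 (interval -0.85 to -0.09) to 0.23 on day 3 (interval -0.18 to 0.62). Neither term was called for Dock1 in limma, with adjusted p of 0.816 for siRNA and 0.509 for day. An antisense gene, Fam196a, overlaps Dock1, and reads of both strands were counted. The mean of Fam196a was 0.13 FPKM, and its part in the Dock1 values was not tested.

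Among the genes of membrane repair, Cav3 (NM_007617, chromosome 6, 112409499 to 112422866, plus strand) had the largest siRNA difference of the 8 genes in limma. It was measured at 3.53, 56.8, 217 and 316 FPKM in siCtrl cells and at 2.91, 17.6, 95.9 and 119 FPKM in siKlf5 cells. The siKlf5 levels were 30.9%, 44.1% and 37.6% of control on days 1, 2 and 3, each below the control of its own day. The log2 ratios were -1.69 (interval -3.92 to -0.19), -1.18 (-1.74 to -0.63) and -1.41 (-1.95 to -0.88). On day 0 both libraries held too few reads (8 and 6) to compare, and the interval ran from -6.16 to 6.43. Averaged over the 4 days, the limma siRNA difference was -1.14 ± 0.27 (SE, adjusted p = 0.652), with the siKlf5 value lower on days 1, 2 and 3 and day 0 too shallow to compare, and it does not pass the correction over all transcripts. Cav3 nevertheless rose over differentiation under both siRNAs. The rise from day 0 to day 3 was 87.0-fold in siCtrl and 39.4-fold in siKlf5 cells, and the limma day difference was 5.87 ± 0.38 (SE, adjusted p = 0.00662). The day 0 counts behind these folds are small, with intervals for the log2 rise of 4.39 to 12.2 and 2.80 to 10.7. Whether the rise differed between the siRNAs was not tested.

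Of the ferlins, Dysf rose over the days and Myof passed no test. Dysf (NM_021469, chromosome 6, 83969380 to 84161053, plus strand) was measured at 18.9, 69.9, 198 and 179 FPKM in siCtrl cells and at 7.53, 76.4, 124 and 152 FPKM in siKlf5 cells. The log2 ratios of siKlf5 to siCtrl were -1.31 on day 0 (interval -2.27 to -0.43), 0.13 on day 1 (-0.28 to 0.53), -0.68 on day 2 (-0.89 to -0.48) and -0.24 on day 3 (-0.46 to -0.02). The low values on days 0 and 2 were thus separated by a day without a detectable difference. From a lower siKlf5 level on day 0, the rise to day 3 was 19.9-fold in siKlf5 and 9.47-fold in siCtrl cells. The limma day difference was 3.78 ± 0.39 (SE, adjusted p = 0.0131), a call lost without the day 2 libraries, and the siRNA difference was -0.53 ± 0.27 (SE, adjusted p = 0.678), or -0.26 without the day 0 libraries.

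Myof (NM_001099634, chromosome 19, 37973526 to 38118067, minus strand) was measured at 509.9, 522, 588 and 492 FPKM in siCtrl cells and at 461, 489.6, 484 and 503 FPKM in siKlf5 cells. Its range over the 8 libraries was 1.27-fold, the smallest of the 8 expressed genes. The log2 ratios were -0.14, -0.09, -0.28 and 0.03, and the intervals on day 0 (-0.27 to -0.02) and day 2 (-0.39 to -0.18) lay below 0. Its limma day difference was 0.04 ± 0.13 (SE, adjusted p = 0.863). The level ratio of Myof to Dysf accordingly went from 27.1 to 2.74 in siCtrl cells between day 0 and day 3, and from 61.2 to 3.31 in siKlf5 cells. Cav1, the caveolin of most other cell types, was measured at 314, 531, 336 and 252 FPKM in siCtrl cells and at 237, 403, 324 and 199 FPKM in siKlf5 cells. The ratio of Cav1 to Cav3 went from 89.0 to 0.799 in siCtrl cells, and from 81.5 to 1.68 in siKlf5 cells, so the Cav3 level was above that of Cav1 in the day 3 siCtrl library and in none of the other 7.

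**Figure D3:**
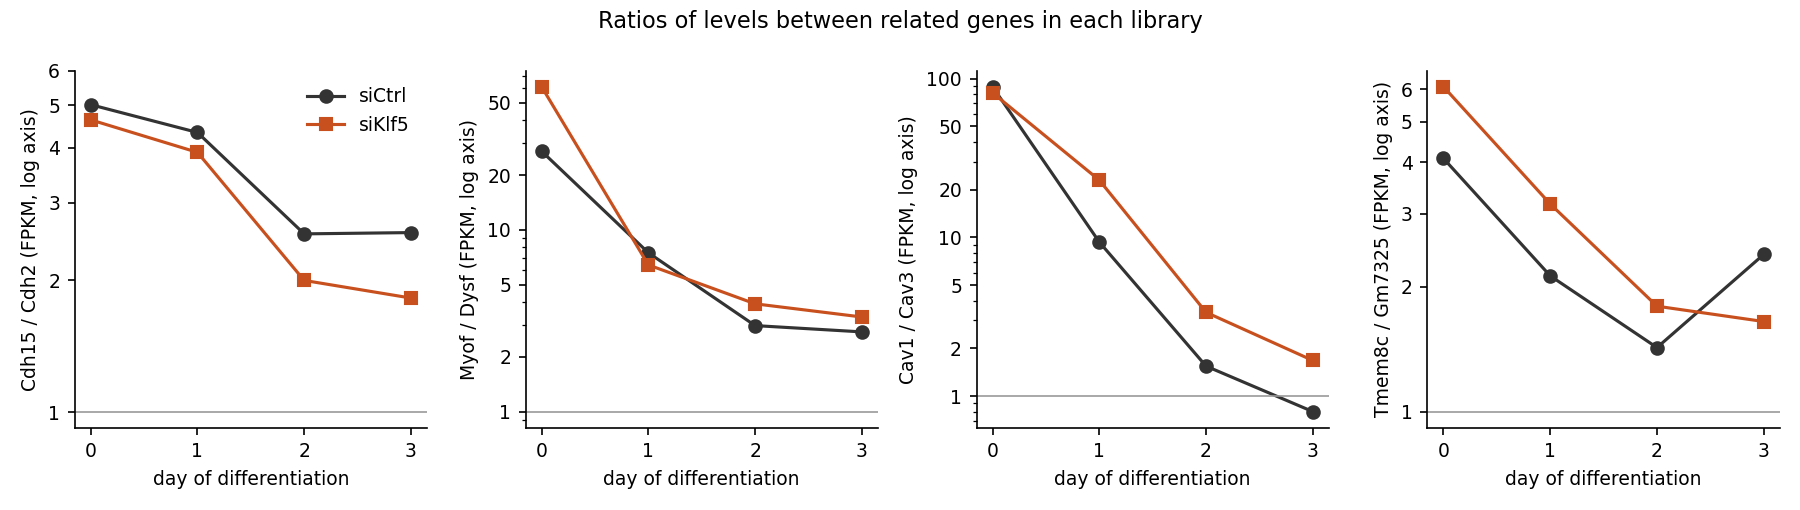
Ratio of FPKM levels between pairs of related or partner genes in each library (vertical log axis), by day, in siCtrl (black circles) and siKlf5 cells (orange squares). The grey line marks equal levels. Cav1 to Cav3 falls from 89.0 to 0.799 in siCtrl cells and to 1.68 in siKlf5 cells, and Myof to Dysf falls from 27.1 and 61.2 to 2.74 and 3.31.

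The promoters of Cav3, Dysf and Myof are shown because these repair genes, although related in role, did not all share a course. Cav3 and Dysf rose over the days, while Myof passed no test of change. RefSeq promoter sequences on GRCm38.p6 were examined for 6 of the 9 genes, 7 entries in all since Dysf has 2. Promoters of Tmem8c, Cdh2 and Adam12 were left out and were not searched for motifs. Each line gives the 250 bases before the start, 5′ to 3′ on the gene's strand, with matches on either strand to CANNTG (the E-box, bound by MyoD and myogenin) or CCGCCC (a GC-box core of the kind that Klf and Sp factors bind) in capitals. The windows are chr6:112459255-112459504 (Cav3, plus strand), chr6:84008348-84008597 and chr6:84019136-84019385 (Dysf, plus strand) and chr19:38043578-38043827 (Myof, minus strand).
Cav3: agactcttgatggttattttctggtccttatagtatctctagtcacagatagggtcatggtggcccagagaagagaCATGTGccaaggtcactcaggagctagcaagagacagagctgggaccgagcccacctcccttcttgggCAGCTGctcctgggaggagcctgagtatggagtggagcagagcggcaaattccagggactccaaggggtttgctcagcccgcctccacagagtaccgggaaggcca
Dysf, upstream start: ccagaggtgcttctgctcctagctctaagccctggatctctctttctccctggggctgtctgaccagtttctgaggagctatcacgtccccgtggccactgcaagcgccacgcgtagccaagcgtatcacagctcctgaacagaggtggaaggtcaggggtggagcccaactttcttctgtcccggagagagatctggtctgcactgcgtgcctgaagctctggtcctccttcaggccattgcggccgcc
Dysf, downstream start: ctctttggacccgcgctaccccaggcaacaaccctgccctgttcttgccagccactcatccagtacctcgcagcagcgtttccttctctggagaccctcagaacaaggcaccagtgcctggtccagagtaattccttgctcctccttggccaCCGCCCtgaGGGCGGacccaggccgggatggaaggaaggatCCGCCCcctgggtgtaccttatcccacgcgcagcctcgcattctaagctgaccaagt
Myof: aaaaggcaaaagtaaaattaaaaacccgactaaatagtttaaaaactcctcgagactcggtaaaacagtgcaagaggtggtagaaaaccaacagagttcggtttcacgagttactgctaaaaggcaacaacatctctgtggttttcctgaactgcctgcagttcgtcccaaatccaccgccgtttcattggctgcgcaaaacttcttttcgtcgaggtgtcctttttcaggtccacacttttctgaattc

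Over the whole 300 bases (250 before and 50 after the start), the Cav3 entry held 2 E-boxes, whose first bases lay 174 and 106 bases before the start (-174 and -106). The second of them reads CAGCTG, a form bound by myogenic factors. For Dysf, the upstream start held no E-box and 1 GC-box core, which reaches past the start, and the downstream start held 1 E-box, after the start, and 3 GC-box cores. Myof held neither motif. The promoter of Cdh15 held 4 E-boxes and 3 GC-box cores, that of Dock1 held 1 and 3, and that of Nphs1 held none of either. Of all 32851 promoters of the same length, 72.3% held the E-box, 16.3% held its form CAGCTG and 20.2% held its form with CACCTG, so these shares overlap. The GC-box core was in 35.7% of them. At least 3 matches were held by 17.6% of all promoters for the E-box and by 10.7% for the GC-box core. The MEF2 motif was found in 3.19% of all promoters and in none of the 7 entries. These matches describe letters in a window and say nothing of binding.

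The wider fusion list held 59 genes in the table, of which 53 were expressed. In limma 6 of the 53 (11.3%) passed the day test upward and 3 (5.66%) downward, beside 8.57% and 9.54% of all 14312 transcripts, with a median log2 difference of -0.10 against -0.09 over all tested transcripts. Among genes averaging at least 10 FPKM, the 5 with the largest change in siCtrl cells were Gm7325, Cdh11, Ncam1, Sh3pxd2a and Itga4. Cdh11, a cadherin of mesenchymal cells, was measured at 17.5, 42.5, 134 and 151 FPKM in siCtrl cells and at 20.2, 73.2, 176 and 189 FPKM in siKlf5 cells, and was thus higher in siKlf5 cells on all 4 days. Its limma day difference was 3.16 ± 0.18 (SE, adjusted p = 0.00547). Ncam1, a neural cell adhesion molecule of the immunoglobulin family, was measured at 171, 418, 761 and 683 FPKM in siCtrl cells and at 150.1, 462, 953 and 929.8 FPKM in siKlf5 cells, and its limma day difference was 2.32 ± 0.19 (SE, adjusted p = 0.0101). The log2 ratios of siKlf5 to siCtrl on days 0 to 3 were 0.20, 0.78, 0.39 and 0.32 for Cdh11, past 1.5-fold on day 1, and -0.18, 0.15, 0.32 and 0.45 for Ncam1, which stayed under 1.5-fold. On days 2 and 3 both had their higher value in siKlf5 cells, as did Cdh2.

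Itga4, the integrin alpha4 chain, was measured at 15.2, 53.2, 44.4 and 33.6 FPKM in siCtrl cells and at 19.2, 45.1, 35.4 and 67.8 FPKM in siKlf5 cells. Its siKlf5 value on day 3 was 2.01-fold the control, and its limma day difference had an adjusted p of 0.0705. Sh3pxd2a, a scaffold of podosomes, was measured at 246, 421, 589 and 547 FPKM in siCtrl cells and at 262, 340.1, 376 and 442 FPKM in siKlf5 cells, and it missed the day threshold with a limma adjusted p of 0.0507. In the comparison of siRNAs, 5, 6, 7 and 4 of the 53 were more than 1.5-fold lower in siKlf5 cells on days 0 to 3, beside 11.1%, 11%, 13.0% and 12.5% of all expressed transcripts. The list's own shares were 9.43%, 11.3%, 13.2% and 7.55%. In the other direction 1, 5, 1 and 8 of the 53 were higher, or 1.89%, 9.43%, 1.89% and 15.1%, beside 9.22%, 16.4%, 7.69% and 10.7% of all. The median log2 ratio on day 3 was 0.07 against 0.00 over all expressed transcripts. A single listed gene, Nfatc2, a calcineurin-regulated transcription factor, passed 1.5-fold downward on each of days 1, 2 and 3. Its FPKM was 1.44, 2.56, 1.82 and 1.60 in siCtrl cells and 1.92, 0.783, 0.461 and 0 in siKlf5 cells, so this stands on very low levels, and its limma siRNA difference had an adjusted p of 0.674.

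The wider list of membrane repair genes held 42 in the table, of which 40 were expressed, and shares Capns1 with the fusion list. In limma 7 of the 40 (17.5%) passed the day test upward and 3 (7.50%) downward, beside the same 8.57% and 9.54%, with a median log2 difference of 0.00. The split of all transcripts, 1227 higher and 1366 lower, turned to 1447 and 1011 with median-ratio scaling. The 5 with the largest change in siCtrl cells, again among genes averaging at least 10 FPKM, were Trim72, Capn3, Murc, Ano5 and Pacsin3, and all 5 passed upward. Dmd (dystrophin), at a mean of 1.23 FPKM, lay under that level and also passed upward (4.27 ± 0.86, SE, limma adjusted p = 0.0433). Trim72 (MG53), which nucleates repair patches at the sarcolemma, was measured at 35.3, 295, 917 and 1220.3 FPKM in siCtrl cells and at 30.9, 473, 1038 and 1179.6 FPKM in siKlf5 cells. Its limma day difference was 5.18 ± 0.25 (SE, adjusted p = 0.00434), and its rise in siCtrl cells was 34.5-fold. Its log2 ratios of siKlf5 to siCtrl were 0.68, 0.18 and -0.05 on days 1, 2 and 3, so its siKlf5 value was the higher on days 1 and 2.

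Murc (cavin-4, the muscle cavin, which works with caveolin-3 at caveolae) was measured at 144, 469, 915 and 1239 FPKM in siCtrl cells and at 130.5, 565, 1073 and 1103 FPKM in siKlf5 cells. Its log2 ratios of siKlf5 to siCtrl were -0.14, 0.27, 0.23 and -0.17, beside -0.27, -1.69, -1.18 and -1.41 for Cav3, and the difference between the genes was not tested. Pacsin3, a membrane-bending protein, had ratios of -0.64, -0.22, -0.01 and 0.00. Capn3, the muscle calpain, had ratios of 0.12, 0.33, -0.22 and -0.48. Ano5, a calcium-dependent phospholipid scramblase of muscle, had ratios of -0.28, -0.23, -0.18 and 0.21. Of these 5 genes only Pacsin3 (day 0) and Trim72 (day 1) passed 1.5-fold on any day. Over the 40 genes, 2, 1, 2 and 3 were more than 1.5-fold lower on days 0 to 3 (5.0%, 2.5%, 5.0% and 7.5%), shares below those of all expressed transcripts (11.1%, 11%, 13.0% and 12.5%). On the same days 2, 5, 0 and 1 were higher (5.0%, 12.5%, 0% and 2.5%), beside 9.22%, 16.4%, 7.69% and 10.7% of all.

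**Figure D4:**
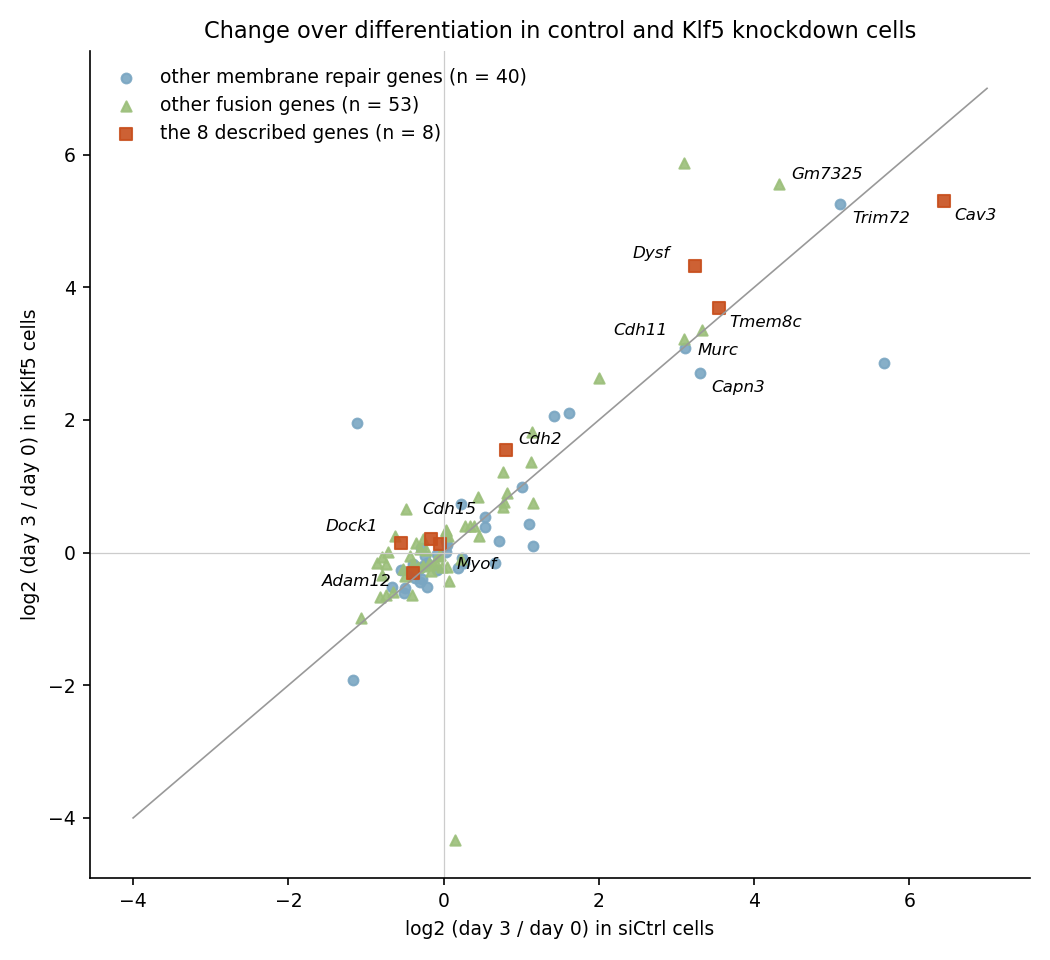
Log2 change from day 0 to day 3 in siCtrl (horizontal axis) and siKlf5 cells (vertical axis), 1 point per expressed gene, for the 8 described genes (orange squares), 53 other fusion genes (green triangles) and 40 other membrane repair genes (blue circles). The line marks equal change. Cav3 (6.44 and 5.30) lies to the right of the line, Dysf (3.24 and 4.32) and Cdh2 (0.81 and 1.55) lie above it, and Tmem8c (3.55 and 3.69) lies close to it.

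Likeness between genes was described by Pearson's r of log2(FPKM + 0.1) over the 8 libraries, which share one time course, so that any pair of genes that climb together has a high value. Among the 9 genes, r was 0.96 for Tmem8c with Dysf, 0.95 for Cav3 with Dysf and 0.92 for Tmem8c with Cav3. Cdh2 had r of 0.85 with Dysf and 0.85 with Tmem8c. Among 11591 transcripts averaging 10 FPKM or more, Actc1 (cardiac alpha-actin, r = 0.996), Col6a2 (a collagen VI chain) and Casq2 (the cardiac calsequestrin) were most like Tmem8c. Ccdc162, Ppapdc3 and Scn4a (the muscle sodium channel) were most like Cav3, with r between 0.993 and 0.996. Scn4a was measured at 1.55, 31.6, 186 and 224 FPKM in siCtrl cells and at 1.70, 16.3, 60.9 and 119.5 FPKM in siKlf5 cells, with the siKlf5 value the lower on days 1 to 3. Since it was chosen for its likeness to Cav3 in these same libraries, a shared direction is built into the choice. Ip6k3 (r = 0.998), Synpo2l and Dapk2 were most like Dysf.

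The remaining genes had these companions. Mettl22, Lmbrd1 and Calml4 were most like Cdh2, with r between 0.971 and 0.979. Calml4 was measured at 36.3 FPKM in siCtrl and 80.7 FPKM in siKlf5 cells on day 3, a direction shared with Cdh2 by the way it was chosen. 5730409E04Rik, Purb and Atp2b4 were most like Cdh15, all with their highest value on day 1 in siCtrl cells. Btbd7, Clvs1 and Ap5m1 were most like Myof, Pdcd6ip, Otulin and Pecr most like Dock1, and Armc6, Mocs1 and Vps11 most like Adam12. For Nphs1, with at most 2 reads in a library, the 3 highest (Aim2, Hmg20b and Unc119) carry no information.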

How the data were processed

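RNA-seq libraries of C2C12 cells were described. The authors selected poly(A) RNA, aligned read pairs to mm9 (STAR) and summed exon reads for RefSeq transcripts in HOMER. HOMER counted either strand, capped each position at 3 reads and condensed each gene to 1 transcript. The deposited FPKM values use a matrix total of 10000000 per library. The log2 columns that the authors deposited hold log2 of FPKM plus 1 plus an added number between 0 and 1, and served as 1 alternative. 1 value column, on the log2 scale, names no day and stayed unmapped. DESeq2-normalized counts, which the study mentions, were not used here. The series' 14 samples include ChIP-seq samples, which were not analysed here. Depth is unequal between libraries, and intervals are widest where a gene has few reads.

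Reads behind each value were recovered from FPKM and exon length. Of 3869 to 5010 low values tested in each library, 100% came within 0.1 of whole reads. Since both ends of a fragment can each leave 3 reads per position, 95% exact (Clopper-Pearson) intervals used reads divided by 6, as did the exact Poisson intervals of neighbouring levels. The 14312 transcripts averaging 1 FPKM or more were called expressed. A limma fit on log2(FPKM + 0.1) had siRNA and day as terms, with Benjamini-Hochberg adjustment over all expressed transcripts. The siRNA term was tested on simulated reads with known changes and counting error only. It called 1.49% of 1.5-fold, 34.3% of 2-fold and 66.7% of 4-fold changes in the right direction. There were 2 false calls, with 14263 transcripts tested.

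The genes, lists and rules were chosen with earlier results of these data known. Named were the 9 genes, Klf5, the 3 transcripts most like each gene (mean of at least 10 FPKM), listed genes past 1.5-fold in 1 direction on days 1, 2 and 3, and, per list, the 5 largest changes in siCtrl cells among genes averaging at least 10 FPKM. Cav1, Dmd, Fam196a, Capns1 and the marker genes were named outside this rule, with values known. Fold changes on the log2(FPKM + 0.1) scale understate the change of low genes. Alternatives were other pseudocounts, scalings, filters and cutoffs, the log2 columns, a mean-variance trend, left-out days and left-out terms. Versions were R 4.3.3, limma 3.58.1, Python 3.11.15, scipy 1.17.1, pandas 2.3.3, numpy 2.4.6 and matplotlib 3.10.9. Coordinates of transcripts are on mm9 as deposited, and promoter sequences are from RefSeq on GRCm38.p6.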

Additional observations from a re-analysis of the deposited data

How the results depend on the processing

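With a cutoff of 2-fold, no gene was higher in siKlf5 cells on day 0 or day 3 (0 in each), and 1 (Cav3) was lower on day 2. With no filter on low levels, Nphs1 entered through its 1 or 2 reads, giving 2 higher on day 1, 1 higher on day 2 and 2 lower on day 3. The deposited log2 columns (days 0, 2 and 3 only, since a day 1 column was not mapped), other pseudocounts, other scalings and a filter at 5 FPKM left these counts within 1.5 times. Of the 3 genes lower on day 2, however, Adam12 (log2 ratio -0.60) came inside the cutoff with a pseudocount of 1 (-0.53) and under median-ratio and upper-quartile scaling (-0.55 in each), which left 2. No ratio past the cutoff changed direction, and the small ratio of Cdh2 on day 1 (0.01) fell to -0.05 under median-ratio scaling and was also below 0 under upper-quartile scaling.

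The limma siRNA term called 9 transcripts with a mean-variance trend and 2 with no day term, and 0 without the libraries of any 1 day. None of the 8 genes was called in any of these fits. Without the libraries of 1 day, the siRNA difference ranged from -0.74 to -0.26 for Dysf, 0.33 to 1.00 for Adam12, 0.11 to 0.37 for Cdh2, -0.25 to -0.01 for Dock1, -0.17 to -0.07 for Myof and -0.09 to 0.05 for Cdh15. The day term called 2593 transcripts (1227 higher, 1366 lower). It called 4347 with the trend, and 819 to 1923 without the libraries of day 2 or day 1. Median-ratio scaling turned the split to 1447 higher and 1011 lower, and upper-quartile scaling to 1445 and 1040. Of the 8 genes, 2 to 3 were called without day 2 or day 1, against 4. Cdh2 was not called without day 1, without day 2 or with no filter, and Dysf was not called without day 2. Tmem8c and Cav3 were called in all of these fits. Why these calls were lost was not tested, beyond the fewer libraries and, with no filter, the larger number of transcripts tested.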
